A study of Mus musculus with 24 samples.

Results

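Potassium channel subunit genes were followed through neuronal differentiation of mouse embryonic stem cells that carried or lacked the repressor REST. The members were all genes whose single gene symbol in the array annotation begins with Kcn, each read from its probe set with the highest mean signal. There were 92 such genes among the 19938 of the 18-array table and 84 among the 18194 of the 6-array table, with 83 in both. Of the 92, 88 encode channel pore or auxiliary subunits. The other 4 are Kcnrg, a regulator that is not itself a subunit, and the opposite-strand transcripts Kcnd3os, Kcnmb4os1 and Kcnmb4os2.

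The study hybridized total RNA to Affymetrix arrays at the stages of embryonic stem cells (ES), neuronal progenitors (NP) and terminal neurons (TN), made in culture by a published protocol. The 18 arrays came from cells of the strain Black Agouti 129 in 6 groups of 3: ES RESTwt, ES RESTko, NP RESTwt, NP RESTko, TN RESThet and TN RESTko, where wt is wildtype, het heterozygous knock-out and ko knock-out for REST. The titles of the ES and NP arrays begin with 1 and those of the TN arrays with 2. What this number marks is not given in the sources used here, so between NP and TN it cannot be told apart from the stage. No wildtype TN group of this strain was analysed here, so the control at TN is heterozygous. A separate set of 6 arrays, with 2 per stage, used wildtype cells whose strain was mixed 129Sv-C57Bl/6, and it was fitted apart from the 18. The titles of these 6 arrays all begin with 2. The labels give neither the number of clones behind a genotype nor a treatment that sets the groups apart. They call the arrays biological replicates and give them the letters a to c (values below are in that order) without stating separate cultures. The p-values therefore cover the spread among these arrays, which may be technical.

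Potassium channels let potassium leave the cell, which sets the resting potential, ends the action potential and paces repeated firing. Voltage-gated pores are assembled from Kcna, Kcnb, Kcnc, Kcnd, Kcnh and Kcnq subunits, while the silent Kcnf, Kcng, Kcns and Kcnv subunits modify them and Kcnab, Kcne and Kcnip proteins attach to them. Kcnma, Kcnn, Kcnt and Kcnu pores respond to intracellular ions or pH, Kcnj genes encode inward rectifiers, and Kcnk genes encode tandem-pore leak channels. REST binds the RE1 element and holds many neuronal genes, ion channels among them, silent outside neurons.

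Signals are on a log2 scale, so a difference of 1 is a doubling, and differences are given with their standard error (SE) from limma. Genes with a Benjamini-Hochberg adjusted p under 0.05 over all genes of the table were called. Arrays of a group correlated across genes with r of 0.992 to 0.998, and the median SE of a difference between genotypes was 0.10. The Rest probe set was lower by label only at ES: the RESTwt-labelled arrays read 8.95 to 8.99 and the RESTko-labelled 8.53 to 8.66. It read 7.45 to 7.51 against 7.40 to 7.57 at NP, and 7.01 to 7.07 (RESThet) against 7.28 to 7.46 (RESTko) at TN. Whether this probe set lies in the deleted part is not given in the sources used here, so every direction between genotypes below rests on the labels. By stage, the mean of 8 pluripotency markers was 10.46 to 10.80 at ES and 5.27 to 7.24 later, while that of 10 neuron markers lay between 5.49 and 6.02 at ES, between 7.45 and 8.55 at NP and between 10.53 and 10.83 at TN. The TN arrays also carried 8 fibroblast markers at a mean of 8.79 to 9.23, against 4.52 to 6.37 before. In such bulk RNA, fewer cells of a type and less RNA per cell cannot be told apart.

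Between genotypes, 13 of the 92 members were called at 1 or more stages and 79 at none. At ES, 3 members were higher in the arrays labelled RESTko, against 5.19% of all genes, and 0 were lower, against 4.05%. At an unadjusted p under 0.05 in limma the members' counts were 4 higher and 2 lower. At NP, 7 were higher, against 4.32% of all genes, and 2 lower, against 3.71%, with unadjusted limma counts of 14 higher and 7 lower. At TN, 0 were higher than in the RESThet-labelled arrays and 3 were lower, against 0.356% and 0.802% of all genes. The unadjusted limma counts there were 6 higher and 14 lower. The median difference of the members was -0.08 at ES, 0.04 at NP and 0.00 at TN, beside -0.03, 0.01 and -0.02 over all genes. As a share of 92, the called members made 3.26% at ES, 7.61% higher and 2.17% lower at NP, and 3.26% lower at TN.

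**Figure D1:**
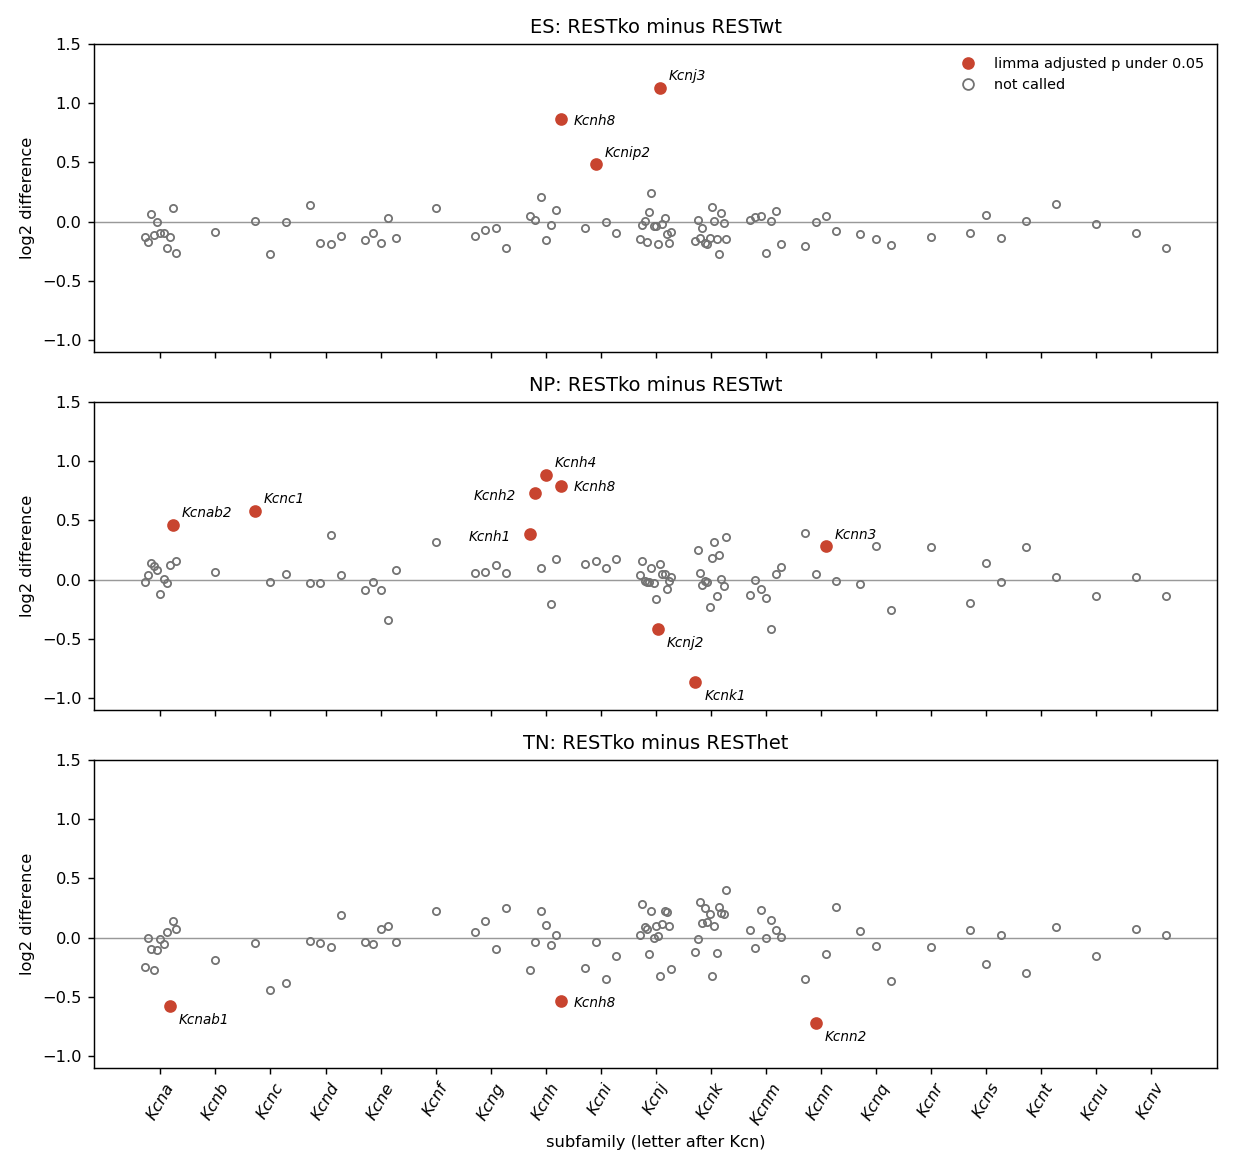
Difference of log2 signal between arrays labelled RESTko and their controls for the 92 Kcn genes (y axis), by the letter after Kcn (x axis), at ES, NP and TN. Each circle is 1 gene and filled circles have a limma adjusted p under 0.05. The Kcnh group holds 4 of the 7 genes called higher at NP, and most other circles lie near 0 in all panels.

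The ether-a-go-go family, Kcnh, held 4 of the 7 members that rose at NP: Kcnh1, Kcnh2, Kcnh4 and Kcnh8. Its 7 measured genes fall into the eag branch (Kcnh1, Kcnh5), the erg branch (Kcnh2, Kcnh7), whose channels repolarize slowly firing cells and the heart, and the elk branch (Kcnh3, Kcnh4, Kcnh8), which opens below the firing threshold. The family's median difference at NP was 0.39, and members of all 3 branches were among those that rose. The windows below run from 250 bases before to 50 after the annotated start, in RefSeq on GRCm38.p6 (5′ to 3′ on the gene's strand). They are those of the 4 Kcnh genes called higher at NP, and of Kcnj3, which had the largest difference at ES. Capitals mark a core of the RE1 element, CAGCACC or GGACAG, on either strand.
Kcnh1 (chr1:192190527-192190826, plus strand): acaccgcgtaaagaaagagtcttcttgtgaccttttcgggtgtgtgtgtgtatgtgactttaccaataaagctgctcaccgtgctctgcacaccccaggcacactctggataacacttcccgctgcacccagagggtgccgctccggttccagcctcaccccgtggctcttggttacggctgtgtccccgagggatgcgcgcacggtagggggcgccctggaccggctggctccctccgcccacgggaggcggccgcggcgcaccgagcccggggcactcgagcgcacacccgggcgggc
Kcnh2 (chr5:24329542-24329841, minus strand): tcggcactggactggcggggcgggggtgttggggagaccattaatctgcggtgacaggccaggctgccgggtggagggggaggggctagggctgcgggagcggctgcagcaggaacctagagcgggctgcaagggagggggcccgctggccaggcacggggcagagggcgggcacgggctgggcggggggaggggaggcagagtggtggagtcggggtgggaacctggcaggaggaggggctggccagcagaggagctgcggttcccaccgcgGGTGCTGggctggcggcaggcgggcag
Kcnh4 (chr11:100759729-100760028, minus strand): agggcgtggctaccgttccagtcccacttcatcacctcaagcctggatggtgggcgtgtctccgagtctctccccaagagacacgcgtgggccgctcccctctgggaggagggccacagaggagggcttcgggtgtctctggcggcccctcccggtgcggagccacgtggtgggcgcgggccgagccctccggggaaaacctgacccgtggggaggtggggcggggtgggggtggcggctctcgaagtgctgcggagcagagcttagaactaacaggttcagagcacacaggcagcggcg
Kcnh8 (chr17:52602459-52602758, plus strand): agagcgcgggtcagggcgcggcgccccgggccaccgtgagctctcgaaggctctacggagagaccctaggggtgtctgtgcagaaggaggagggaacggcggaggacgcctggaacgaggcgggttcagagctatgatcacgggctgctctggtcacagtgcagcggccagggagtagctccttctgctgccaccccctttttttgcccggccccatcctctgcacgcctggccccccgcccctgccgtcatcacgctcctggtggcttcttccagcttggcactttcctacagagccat
Kcnj3 (chr2:55435720-55436019, plus strand): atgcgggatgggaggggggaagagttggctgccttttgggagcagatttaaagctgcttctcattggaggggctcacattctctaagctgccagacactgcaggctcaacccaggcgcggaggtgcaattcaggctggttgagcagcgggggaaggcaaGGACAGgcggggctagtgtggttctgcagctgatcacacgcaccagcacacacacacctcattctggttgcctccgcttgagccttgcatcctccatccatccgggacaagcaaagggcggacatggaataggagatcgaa

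The windows hold 27 CG dinucleotides in Kcnh1, 19 in Kcnh2, 23 in Kcnh4, 21 in Kcnh8 and 10 in Kcnj3. For a gene with several windows the highest count was taken. The median over genes was then 14 for the Kcn genes and 8 for all genes, so that Kcnj3 lies below the former. The Kcnh2 window holds CAGCACC on the opposite strand, the Kcnj3 window holds GGACAG, and the windows of Kcnh1, Kcnh4 and Kcnh8 hold neither core. Windows on chromosome 18, where Kcnn2 and Kcng2 lie, were left out of these counts and medians. Of the 92 members, 70 had a window among the rest. CAGCACC occurred in 10 of the 70 (14.3%) and in 8.14% of 27025 genes, and GGACAG in 25 of the 70 (35.7%) and in 24.7% of genes. Among the 12 of these 70 that were called between genotypes, CAGCACC occurred in Kcnab2, Kcnh2 and Kcnj2, and GGACAG in Kcnab2, Kcnj3 and Kcnk1. Both cores in order with 2 bases between them occurred in 11 genes, and in 0 of the 70. A match is only a run of letters in this window, and elements farther from the start were not searched.

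Kcnh4 showed the largest difference among the members at NP. The RESTwt-labelled arrays read 6.02, 5.56 and 5.86 and the RESTko-labelled 6.74, 6.64 and 6.74, and the groups do not overlap. The difference was 0.89 (SE 0.10, limma adjusted p = 2.53e-05, n = 3 per group), a 1.85-fold rise. At ES the same gene read 5.43 to 5.62 and 5.32 to 5.39, and at TN 6.26 to 6.55 and 6.42 to 6.60, with no call at either stage. The NP arrays labelled RESTko thus read above the TN arrays labelled RESThet, a stage later.

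Kcnh2, the erg pore, read 7.03, 6.85 and 7.13 in the RESTwt-labelled NP arrays and 7.76, 7.75 and 7.70 in the RESTko-labelled. All RESTko-labelled arrays stood above all RESTwt-labelled, by 0.73 on average (SE 0.10, limma adjusted p = 0.000242), or 1.66-fold. At TN the RESThet-labelled arrays read 7.62 to 7.73, so that the RESTko-labelled NP arrays lay within or above that range. The ES arrays read 6.04 to 6.24 across both labels, without a call.

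Kcnh8 was the only member called at all 3 stages, and its direction turned. At ES the RESTwt-labelled arrays read 4.56, 4.73 and 4.61 and the RESTko-labelled 5.49, 5.36 and 5.65, a difference of 0.87 (SE 0.10, limma adjusted p = 2.54e-05). At NP the values were 5.17, 4.98 and 5.14 against 6.03, 5.83 and 5.80, a difference of 0.79 (limma adjusted p = 9.75e-05). At TN the RESThet-labelled arrays read 7.27, 7.65 and 7.49 and the RESTko-labelled 6.89, 7.04 and 6.87, so that Kcnh8 fell by 0.54 (SE 0.10, limma adjusted p = 0.0124). At every stage the groups do not overlap. A second Kcnh8 probe set, not used in the fit, gave differences of 0.56, 0.74 and -0.51 at ES, NP and TN.

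Kcnh1, the eag pore, rose least of the 4, from 5.39, 5.36 and 5.44 to 5.63, 5.96 and 5.77 at NP (0.39, SE 0.09, limma adjusted p = 0.0126). Without RESTko-labelled array b its limma adjusted p was 0.0697, without RESTwt-labelled array b 0.0536, and in a fit of the NP arrays alone 0.0836. The other 3 family members were not called at NP, with differences of 0.10 for Kcnh3, -0.21 for Kcnh5 and 0.17 for Kcnh7. The calls of Kcnh2, Kcnh4 and Kcnh8 at NP held in every alternative run.

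Among inward rectifiers, Kcnj3, a pore subunit opened by G proteins downstream of inhibitory receptors, had the largest difference of any member at ES. The RESTwt-labelled arrays read 4.28, 4.54 and 4.54 and the RESTko-labelled 5.54, 5.46 and 5.75, with no overlap. The difference was 1.13 (SE 0.12, limma adjusted p = 4.96e-06), or 2.19-fold. At NP both groups were low, at 3.68 to 3.93 and 3.89 to 4.01, and no difference was called. At TN the RESThet-labelled arrays read 6.86 to 7.06 and the RESTko-labelled 6.36 to 6.84 (limma adjusted p = 0.239). The channel's possible partners Kcnj5, Kcnj6 and Kcnj9 were not called at any stage between genotypes.

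The other member that rose at ES, Kcnip2, encodes a cytoplasmic calcium-binding protein that attaches to Kcnd channels and speeds their recovery. Its RESTwt-labelled arrays read 5.58, 5.32 and 5.23 and its RESTko-labelled arrays 5.83, 5.87 and 5.88, a difference of 0.48 (SE 0.09, limma adjusted p = 0.0018). The groups do not overlap, and Kcnip1, Kcnip3 and Kcnip4 were not called at ES. The calls of Kcnj3, Kcnh8 and Kcnip2 at ES held in every alternative run. Beside the ES results, 4 of 10 neuron markers were higher in the RESTko-labelled ES arrays (list mean 5.86 to 6.02 against 5.49 to 5.54), as were 3 of 9 endoderm and epithelium markers (6.42 to 6.66 against 5.85 to 6.18). Of the other lists, 2 of 8 muscle markers (5.80 to 6.08 against 5.48 to 5.63) and 2 of 8 neural progenitor markers (6.61 to 6.76 against 6.48 to 6.59) were higher. Lower were 2 of 8 pluripotency markers (10.46 to 10.57 against 10.74 to 10.80) and 1 of 7 measured oligodendrocyte markers (4.83 to 5.02 against 5.04 to 5.13). Their part in the results was not tested.

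At NP, 3 further members rose. Kcnc1, the Shaw pore of fast-spiking neurons, read 4.70, 4.25 and 4.54 under the label RESTwt and 4.98, 5.03 and 5.23 under RESTko (0.58, SE 0.11, limma adjusted p = 0.00223). Kcnab2, a cytoplasmic beta subunit of Kcna channels, read 6.40, 5.98 and 6.37 against 6.72, 6.67 and 6.76 (0.46, SE 0.12, limma adjusted p = 0.0179). Kcnn3, a small-conductance pore gated by calcium, read 5.37, 5.08 and 5.12 against 5.48, 5.46 and 5.47 (0.28, SE 0.08, limma adjusted p = 0.0468). For each the groups do not overlap, but each call was lost in some alternatives. Without RESTwt-labelled array b, the lowest of its group for all of these genes, the adjusted p of Kcnab2 was 0.115 and that of Kcnn3 0.217. In a fit of the NP arrays alone it was 0.0546 for Kcnc1, 0.089 for Kcnab2 and 0.175 for Kcnn3. The Kcnn3 call was also lost with the replicate block (0.0611) and a variance trend (0.0798). Leaving out RESTko-labelled array a (0.142), b (0.0916) or c (0.102) or RESTwt-labelled array c (0.15) lost it too. The Kcnab2 call was also lost without RESTko-labelled array a (0.0606) or c (0.0563). The total of called members at NP fell from 9 to 5 without RESTwt-labelled array b and to 4 in the fit of the NP arrays alone.

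Kcnk1, a tandem-pore leak subunit, fell most at NP. The RESTwt-labelled arrays read 8.01, 8.22 and 7.99 and the RESTko-labelled 6.99, 7.28 and 7.35. Without overlap, it fell by 0.87 (SE 0.11, limma adjusted p = 4.54e-05), and the call held in every alternative run. Kcnk1 lies on chromosome 8, whose 747 genes outside the dimmest 30% had a median difference of -0.24 at NP, beside 0.03 over the other autosomes. Less that chromosome median, the difference of Kcnk1 was still -0.63, with no test. At ES, where the chromosome's median was -0.21, Kcnk1 differed by -0.17 (limma adjusted p = 0.398). The other chromosome 8 members, Kcnn1, Kcng4 and Kcnu1, were not called between genotypes.

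Kcnj2, a strong inward rectifier that holds the resting potential, read 4.05, 3.88 and 3.82 in the RESTwt-labelled NP arrays and 3.17, 3.55 and 3.78 in the RESTko-labelled, and fell by 0.42 (SE 0.12, limma adjusted p = 0.0411). RESTko-labelled array a was the lowest, and without it the adjusted p was 0.243. The call was also lost with the replicate letter as a block (0.0548) and in a fit of the NP arrays alone (0.209). Array weights (0.127) and quantile normalization (0.0668) lost it too. So did leaving out RESTko-labelled array b (0.0731) or RESTwt-labelled array a (0.126), b (0.0923) or c (0.052).

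Beside the NP results, 6 of 10 neuron markers were higher in the RESTko-labelled arrays, with list means of 8.19 to 8.55 against 7.45 to 8.09. Of 9 endoderm and epithelium markers 1 was higher and 3 were lower (7.09 to 7.19 against 7.26 to 7.87), and of 8 fibroblast markers 3 were lower (5.52 to 5.80 against 5.77 to 6.37). Also lower were 2 of 6 endothelium markers (4.68 to 5.36 against 5.35 to 5.74), 1 of 8 muscle markers (5.15 to 5.57 against 5.55 to 5.68) and 1 of 8 pluripotency markers (5.83 to 6.82 against 6.39 to 7.24). Their part in the results was not tested. The members' mean signals were low on these arrays: 73 of 92 lay at or below the median of all genes, and 5 of the 7 members higher at NP were among the 19 above it.

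**Figure D2:**
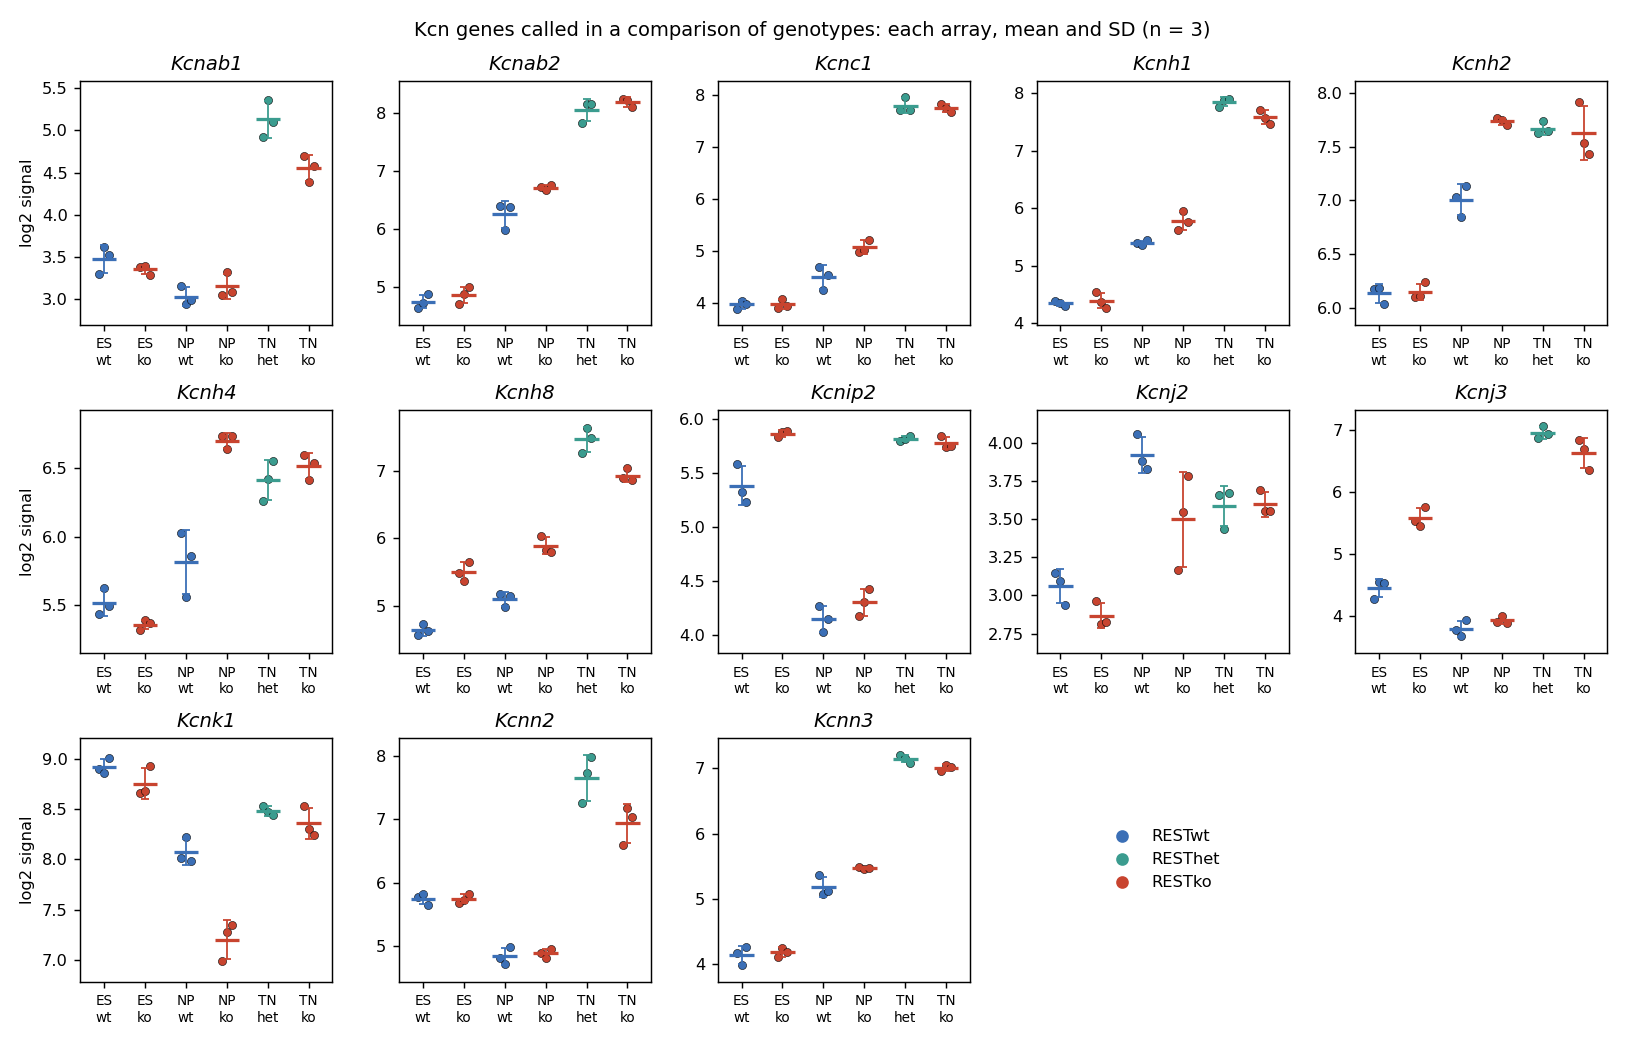
Log2 signal (y axis, scaled for each gene) of the 13 Kcn genes called between genotypes, on each of the 18 arrays by stage and label (x axis), with group mean and SD (n = 3). Kcnh2 and Kcnh4 in the NP arrays labelled RESTko stand within or above the range of the TN arrays labelled RESThet, and Kcnh8 is higher under RESTko at ES and NP and lower at TN.

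At TN, Kcnn2, Kcnab1 and Kcnh8 were lower in the arrays labelled RESTko than in those labelled RESThet. Kcnn2, the small-conductance calcium-gated pore of the afterhyperpolarization, read 7.26, 7.73 and 7.98 against 6.59, 7.18 and 7.04 and fell by 0.72 (SE 0.15, limma adjusted p = 0.024). Kcnab1, a beta subunit that inactivates Kcna channels, read 4.92, 5.36 and 5.10 against 4.69, 4.39 and 4.58 and fell by 0.58 (SE 0.12, limma adjusted p = 0.0176). Neither pair of groups overlaps. All 3 calls depended on the other groups in the fit: with the TN arrays alone the adjusted p was 0.284 for Kcnn2, 0.161 for Kcnab1 and 0.129 for Kcnh8. With 1 array left out, the count of called members at TN was 0 without RESThet-labelled array b or c or RESTko-labelled array c, 1 without RESTko-labelled array a, 2 without RESTko-labelled array b and 3 without RESThet-labelled array a. Beside the TN results, 1 of 10 neuron markers was lower (Slc17a6; list means 10.53 to 10.63 against 10.65 to 10.83). So were 1 of 8 neural progenitor markers (Prom1, by 0.73; 6.96 to 7.38 against 7.29 to 7.72) and 1 of 8 astrocyte markers (Gja1, by 0.81; 6.88 to 7.41 against 7.28 to 7.65). Their part in the results was not tested.

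The differences between stages were tested directly. Moving from ES to NP, the difference between labels became larger for 3 members, against 2.31% of all genes, and smaller or more negative for 2, against 2.55%. It grew by 1.05 for Kcnh4 (SE 0.14, limma adjusted p = 0.000364), by 0.71 for Kcnh2 and by 0.58 for Kcnc1 (limma adjusted p = 0.0343). The Kcnc1 call was lost with the replicate block (adjusted p = 0.0518) and in a fit of the ES and NP arrays alone (0.0567). Leaving out single arrays of either stage lost it too, such as RESTwt-labelled ES array b (0.0873) or RESTko-labelled NP array c (0.0878). The difference between labels changed by -0.996 for Kcnj3 (SE 0.16, limma adjusted p = 0.00149) and by -0.70 for Kcnk1. For Kcnh8 it moved by -0.07 (limma adjusted p = 0.871), with similar rises at both stages. The contrast is the NP difference less the ES difference. By construction, genes called at NP lean in it towards their NP direction, and genes called at ES away from their ES direction.

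From NP to TN the contrast also changes its control, from RESTwt to RESThet, and the leading number of the array titles. The difference became more positive for 1 member, against 1.40% of all genes, and more negative for 6, against 2.51%. Kcnh8 moved most, by -1.33 (SE 0.15, limma adjusted p = 3.53e-05), followed by Kcnh4 at -0.78, Kcnh2 at -0.77, Kcnab1 at -0.70, Kcnh1 at -0.66 and Kcnc1 at -0.63. Kcnk1 moved by 0.75 (limma adjusted p = 0.00808). The contrast subtracts the NP difference, so genes called higher at NP lean towards negative values in it by construction. The calls of Kcnab1 and Kcnc1 were lost in a fit without the ES arrays, with adjusted p of 0.0557 and 0.0766. Both were also lost without RESTwt-labelled NP array b (0.0605 and 0.0651), RESThet-labelled TN array b (0.0506 and 0.0628) or RESTko-labelled TN array b (0.0619 and 0.0528). Kcnab1 was lost too without RESTko-labelled NP array b (0.0601). Kcnc1 was lost too without RESTko-labelled NP array c (0.0639) or TN array c (0.0665).

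Related genes outside the Kcn names were read from a list of 34, of which 31 were measured. It holds accessory and scaffold proteins of potassium channels and also the Hcn pacemaker channels, which are pores in their own right. At ES, 4 were higher in the RESTko-labelled arrays (12.9% of the 31, against 5.19% of all genes) and 1 was lower (3.23% against 4.05%). At NP 6 were higher (19.4% against 4.32%) and 0 lower (against 3.71%), with 10 and 1 at an unadjusted p under 0.05 in limma and a median of 0.15. At TN 0 were called in either direction, against 0.356% and 0.802% of all genes (0 higher and 1 lower unadjusted in limma). Hcn2, a pacemaker cation channel gated by cyclic nucleotides, read 5.41, 5.27 and 5.59 against 6.75, 6.61 and 6.88 at NP, a difference of 1.32 (SE 0.12, limma adjusted p = 1.7e-06). Its relative Hcn3 differed by 1.06 at ES and 1.10 at NP. Dpp6, a transmembrane partner of Kcnd channels, rose by 0.93 at NP, where Kcnd1, Kcnd2 and Kcnd3 were not called. Rgs7, which shortens G-protein signals to Kcnj channels, rose by 0.52 at ES and 0.87 at NP. The scaffold gene Akap5 rose by 0.56 at ES and Dlg4 by 0.62 at NP. The Dlg4 call was lost without RESTwt-labelled array b (adjusted p = 0.264) or c (0.0875) or RESTko-labelled array a (0.255) or c (0.0612). Quantile normalization (0.0621) and a fit of the NP arrays alone (0.267) lost it too. Fgf13, on the X chromosome, fell by 0.61 at ES and rose by 0.41 at NP. The rise was not called without RESTwt-labelled array b (0.207) or c (0.0678) or RESTko-labelled array a (0.179) or b (0.0618). Nor was it called in a fit of the NP arrays alone (0.137). The X chromosome's median difference was -0.13 at ES.

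The step from ES to NP under the label RESTwt moved members both ways: 23 rose, against 31.0% of all genes, and 38 fell, against 36.1%. The members' median was -0.13, beside -0.07 for all genes. The largest rises were in Kcnab2 (1.51, SE 0.12), the mechanically gated leak subunit Kcnk10 (1.32), the calcium-gated Kcnn1 (1.13, chromosome 8), the large-conductance pore Kcnma1 (1.08) with its beta subunit Kcnmb4 (1.08), and Kcnh1 (1.05). The largest falls were in Kcnk5, an alkali-activated leak subunit (-1.41, SE 0.13), Kcnrg (-1.28), Kcnip2 (-1.23), Kcnh3 (-1.16), Kcnk4 (-1.04) and the X-linked Kcnd1 (-1.01). Of 15 inward rectifiers 8 fell and 2 rose, of 10 modifier subunits 6 fell and 1 rose, and of 7 ether-a-go-go genes 5 rose and 1 fell. After quantile normalization 21 of all members rose and 42 fell in this step, with a median of -0.22, beside -0.07 over all genes.

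Under the label RESTko the same step counted 30 members up, against 32.2% of all genes, and 31 down, against 33.9%. After quantile normalization 27 rose and 36 fell, with a median of -0.15, beside -0.04 over all genes. As deposited, Kcnh2 rose by 1.58 under RESTko and by 0.87 under RESTwt, Kcnd3 by 1.51 and 0.95, and Kcnk1 fell by 1.55 and 0.85. Kcnj3, high in the RESTko-labelled ES arrays, fell by 1.65 against 0.66. The difference between the steps is the ES to NP change tested above, which was called for Kcnh2, Kcnk1 and Kcnj3 and not for Kcnd3 (limma adjusted p = 0.0744).

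The step from NP to TN raised most members. Going from NP RESTwt to TN RESThet changes the stage, the genotype label and the leading number of the array titles. In this step 62 members rose, against 43.2% of all genes, and 6 fell, against 29.9%. Their median was 0.94, beside 0.14 for all genes. Array medians also rose with stage (5.19 to 5.26 at NP, 5.41 to 5.49 at TN), and after quantile normalization the all-gene median of this step was -0.07, with 58 members higher and 14 lower. The share of called members that rose was 91.2% as deposited and 80.6% after quantile normalization.

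**Figure D3:**
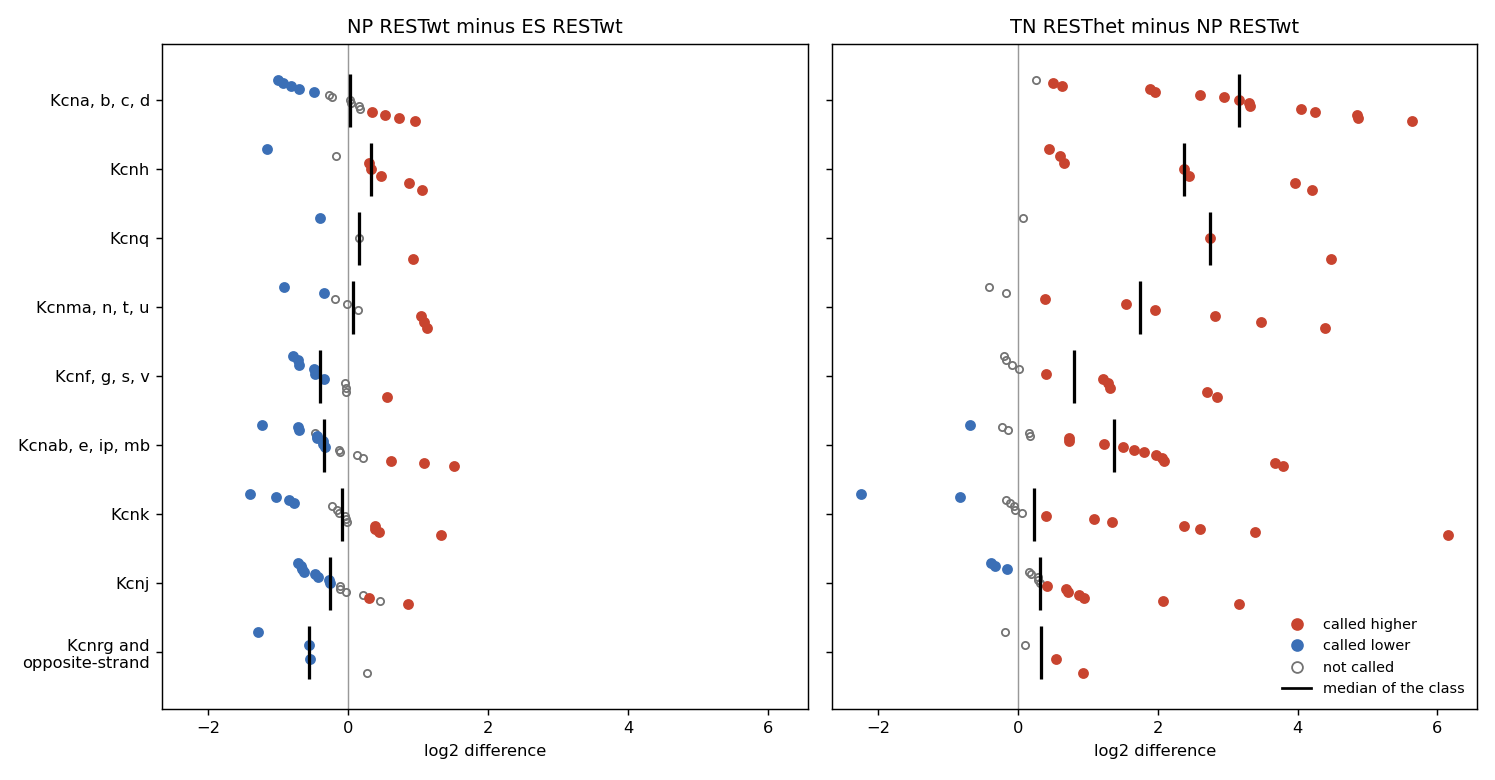
Difference of log2 signal (x axis) of the 92 Kcn genes from ES to NP under RESTwt (left) and from NP RESTwt to TN RESThet (right), by class (y axis). Red and blue circles are genes called higher and lower and black bars class medians. In the right panel the voltage-gated pore classes at the top lie far to the right, at medians of 3.16, 2.37 and, for Kcnq, 2.75. The leak and inward rectifier classes center near 0.23 and 0.31.

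The voltage-gated pores led this step. Of the 15 Kcna, Kcnb, Kcnc and Kcnd genes 14 rose, with a median of 3.16, and the exception was Kcna10 (0.26). Kcnd2, which carries the fast dendritic A-type current, read 5.22, 4.26 and 4.22 at NP and 10.13, 10.25 and 10.22 at TN. That is a difference of 5.63 (SE 0.19, limma adjusted p = 1.52e-14), or 49.7-fold, and NP array a was the highest of its group. The delayed rectifier Kcnb2 rose by 4.86 (from 3.42 to 3.79, to 8.46 to 8.56) and the A-type Kcna4 by 4.85 (from 2.43 to 2.93, to 7.35 to 7.59). All 7 ether-a-go-go genes rose, with a median of 2.37 (2.20 after quantile normalization), from 0.45 for Kcnh3 to 4.21 for Kcnh5. Of 3 Kcnq genes, Kcnq3 of the M current rose by 4.48 and Kcnq5 by 2.75, while Kcnq1 was not called.

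Pores gated by intracellular ions mostly rose as well, 6 of 8, among them Kcnma1 by 4.40 (SE 0.08, from 4.71 to 4.94, to 9.14 to 9.25) and the sodium-gated Kcnt2 by 3.47. Kcnu1 on chromosome 8 rose by 0.39 and was not called after quantile normalization (adjusted p = 0.159). Of the 16 auxiliary genes 11 rose and 1, Kcnab3, fell by 0.68. The rises were largest for Kcnip1 (13.9-fold) and Kcnip4 (12.8-fold), and Kcne4 rose 2.36-fold. After quantile normalization these classes counted 5 higher and 1 lower (pores gated by ions) and 11 higher and 3 lower (auxiliary genes). Of the 10 modifier subunits 6 rose and 0 fell, or 5 and 3 after quantile normalization (Kcng2, Kcns1 and Kcnv2 lower), with Kcns2 at 2.85, Kcng3 at 2.70, Kcnf1 at 1.32 and Kcnv1 at 1.28.

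Leak channels and inward rectifiers were divided. Kcnk9, an acid-sensitive leak subunit, had the largest rise of any member: its NP arrays read 4.45, 4.44 and 4.60 and its TN arrays 10.74, 10.76 and 10.45, a difference of 6.15 (SE 0.15, limma adjusted p = 1.53e-16), or 71.1-fold. Kcnk10 rose by 3.39, Kcnk2 by 2.61 and Kcnk3 by 2.37, yet the median of the 14 leak genes was 0.23, or 0.07 after quantile normalization, and 2 fell. Kcnk5 fell by 2.24 (SE 0.13), from 6.45 to 6.74 at NP to 4.18 to 4.74 at TN, and Kcnk6 by 0.82. Of the 15 inward rectifiers 7 rose and 3 fell, with a median of 0.31 (0.08 after quantile normalization). The G-protein-gated Kcnj3 and Kcnj6 rose by 3.16 and 2.07. Kcnj10, the glial inward rectifier, fell by 0.38, Kcnj2 by 0.33 and Kcnj4 by 0.15. In the same step 7 of 8 astrocyte markers were higher and 1 lower, with a median of 1.78. All of these last 3 calls were lost without RESThet-labelled TN array b, with adjusted p of 0.208, 0.0973 and 0.13.

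Under the label RESTko, 64 members rose from NP to TN, against 41.8% of all genes, and 4 fell, against 29.2%, with a median of 1.00. After quantile normalization 56 rose and 9 fell, with a median of 0.76. Of the ether-a-go-go genes 5 of 7 rose here; Kcnh2 changed by -0.11 (limma adjusted p = 0.349) and Kcnh4 by -0.18 (limma adjusted p = 0.117; called lower after quantile normalization). Their steps differed from those of the REST-carrying arrays by the -0.77 and -0.78 given above. Kcnn1 fell by 1.15 under RESTko, and by 0.41 without a call in the REST-carrying arrays. The difference between its steps was -0.74 (limma adjusted p = 0.332).

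The mixed-strain wildtype arrays gave a separate course over 84 members, on another array type. From ES to NP, 8 rose, against 19.9% of all genes, and 9 fell, against 19.0%. Kcnh2 rose most, from 5.39 and 5.60 to 8.74 and 9.09 (3.42, SE 0.16, limma adjusted p = 7.28e-07, n = 2 per stage). Kcnmb4 rose by 1.91 and Kcnc1 by 1.16, the latter not called as a mean over its probe sets (adjusted p = 0.102). Kcnip2 fell from 6.92 and 6.48 to 3.55 and 3.98, by 2.93 (SE 0.19; by 1.59 as a mean over its probe sets), Kcnk6 by 1.72 and Kcnn2 by 1.40. Of the 17 called members also held in the 18-array table, 14 were called in its RESTwt step, which is 82.4% of 17 and 25.5% of the 55 called there. All 14 moved the same way.

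From NP to TN, 31 members of this course rose, against 21.7% of all genes, and 3 fell, against 29.1%, with a median of 0.23, beside -0.09 for all genes. Kcnd2 rose by 6.17 (from 3.04 and 2.96 to 9.40 and 8.95), Kcnq3 by 4.99, Kcnd3 by 4.79, Kcna1 by 4.55, Kcnma1 by 4.47 and Kcna6 by 3.94. Of the 13 Kcna, Kcnb, Kcnc and Kcnd genes measured 11 rose, and of 15 inward rectifiers 0 were called in either direction from the probe sets used (1 higher and 0 lower at an unadjusted p under 0.05 in limma). As means over all probe sets of a gene the rises stayed called but were smaller, at 4.54 for Kcnd2, 3.41 for Kcnq3, 2.04 for Kcnd3, 2.49 for Kcna1, 2.28 for Kcnma1 and 1.97 for Kcna6. Kcnj3, which rose by 3.16 in the 18-array table, had 4 probe sets here that disagreed. The brightest, used in the fit, read 4.57 and 5.14 at NP and 4.90 and 5.21 at TN (a difference of 0.20), while the others differed by 1.30, 1.17 and 0.19. Kcnk5 fell by 2.37 and Kcnk6 by 1.30.

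Of the 83 members in both tables, 33 were called in both NP to TN steps, 97.1% of the 34 in the 6-array table and 52.4% of the 63 in the other. Of these 33, 32 moved the same way. The exception was Kcnh2, which fell from 8.74 and 9.09 to 7.88 and 7.94 in the mixed-strain arrays, by 1.01 (SE 0.16, limma adjusted p = 0.000557), and rose by 0.66 (SE 0.10, limma adjusted p = 1.68e-05) in the 18-array table. In the mixed strain its NP arrays thus read above its TN arrays, with no overlap, and in the 18-array table the RESTwt-labelled NP arrays read below. In the 18-array table the leading number of the titles also changes between NP and TN, and in the 6-array table it does not. The tables differ in strain, in array type, in the TN genotype and in this change, which cannot be told apart here.

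**Figure D4:**
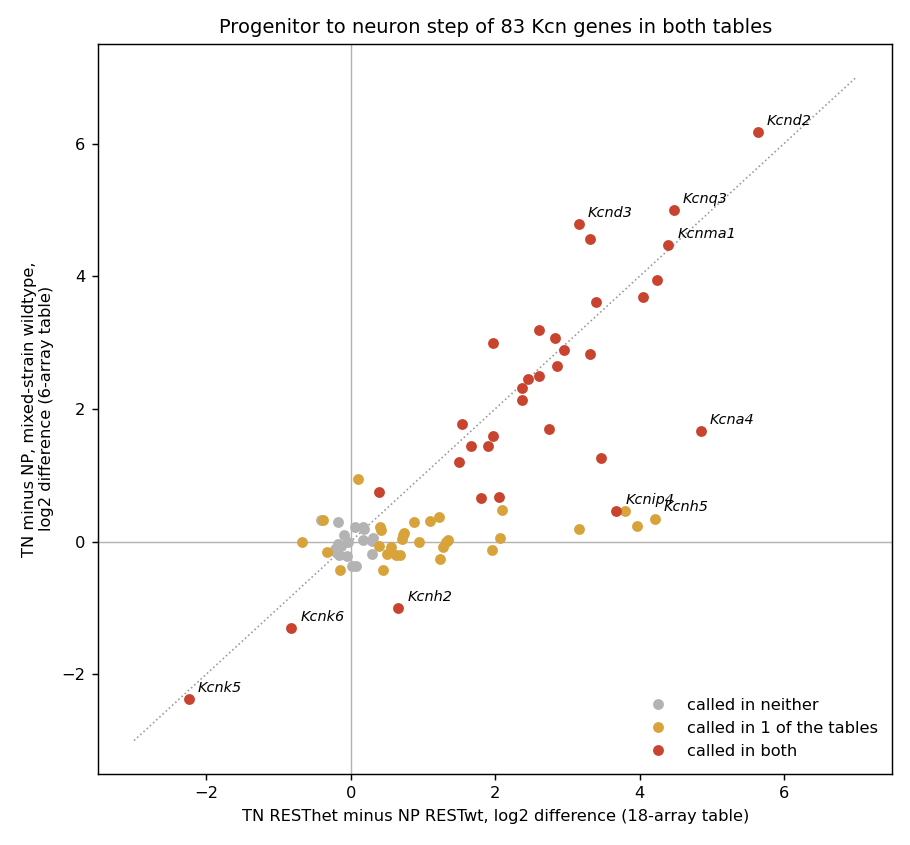
NP to TN difference of log2 signal of 83 Kcn genes in the 18-array table (x axis, TN RESThet minus NP RESTwt) and the 6-array table (y axis, mixed-strain wildtype), with the line of equality dotted. Genes called in both lie mostly in the upper right, Kcnk5 and Kcnk6 lie in the lower left, and Kcnh2 (0.66 and -1.01) is the gene called in both with opposite signs.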

How the data were processed

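Both tables hold probe-set signals deposited by the authors on a log2 scale, as their values show, and these were used unchanged. The submitters' processing notes name oligo 1.14.0, and no source used here states the background correction, summarization or normalization. A gene was read from the single-symbol probe set with the highest mean. Group means were fitted to all arrays of a table, without a block, by limma (version 3.58.1, R 4.3.3, two-sided), with Benjamini-Hochberg adjustment over all genes, and the script was tested on simulated data. The rule for named genes took called members, up to 15 per direction between genotypes, 10 for changes between stages and 6 for steps, called genes of the related-gene list and, for other subfamilies, the member with the widest group means. Other members named were chosen after their values were seen. The members, lists and tests were chosen with earlier results of these data known. The number of arrays limits the precision. Alternatives were array weights, a variance trend, a replicate block, the compared groups alone, quantile normalization, means over probe sets, and omission of the dimmest 30% of genes or of single arrays.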

Additional observations from a re-analysis of the deposited data

Results flagged for a closer look

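The difference between genotype labels changed between stages, by a direct limma test of that change, for these members. From ES to NP it changed by 1.05 for Kcnh4, 0.71 for Kcnh2, 0.58 for Kcnc1, -0.996 for Kcnj3 and -0.70 for Kcnk1. From NP to TN, where the control also changes from RESTwt to RESThet, it changed by -1.33 for Kcnh8, -0.78 for Kcnh4, -0.77 for Kcnh2, -0.70 for Kcnab1, -0.66 for Kcnh1, -0.63 for Kcnc1 and 0.75 for Kcnk1. Genes already called at either stage lean in these changes by construction. The calls of Kcnc1 in both changes and of Kcnab1 from NP to TN were lost in several alternatives, as given above. Groups of 3 arrays were too small for a search for single arrays that stand apart.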

How the results depend on the processing

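The 122 named results were recomputed 1607 times in all; 1511 kept their direction and side of the threshold, 93 kept the direction and lost the call, and 3 reversed. The 3 reversals are all of Rest at NP, whose difference was -0.01 as reported, 0.015 with array weights, and -0.066 to 0.022 with single arrays left out (0.0033 without RESTko-labelled array a). For 101 results no alternative lost the call or turned the direction. In a fit of the compared groups alone, called members numbered 4 at NP instead of 9 and 0 at TN instead of 3, where fewer arrays estimate the spread. Leaving out 1 array in turn gave 5 to 9 called members at NP, 0 to 3 at TN and 3 to 4 at ES, 4 to 7 and 5 to 10 for the changes between stages, 56 to 62 and 66 to 69 for the steps of REST-carrying arrays, 56 to 61 and 66 to 70 under RESTko, and 13 to 18 and 32 to 38 in the mixed strain. Same-letter correlations of deviations lay between -0.05 and 0.15 for ES, between 0.0067 and 0.40 for NP and between -0.14 and 0.08 for TN. No correlations between different letters were set beside them, so these values cannot show whether a letter marks arrays that belong together. With the replicate block 3 members were called at ES, 7 at NP and 3 at TN; that fit lost the calls of Kcnn3 and Kcnj2 at NP and of Kcnc1 in the ES to NP change and of no other named gene. The subtraction of the chromosome 8 median was chosen after seeing the data. Of the 92 members, 73 lie at or below the median signal of all genes; of these, 3 were called at NP and 52 in the NP to TN step of REST-carrying arrays.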
